A study of Mus musculus with 6 samples.

Results

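The genes described here are 9 integrin subunits of T cells, led by Itgae, which encodes the CD103 chain, together with Cdh1, which encodes E-cadherin, the epithelial ligand of CD103. They were chosen by name, 10 of 22180 genes tested, and all 10 were measured. Earlier results of these data were known at that choice, so counts set beside all genes are descriptions. Where a gene had several probe sets, the brightest over the 6 arrays was read, which concerned Itgav and Cdh1. The cells were lung CD4 T cells of wild-type (WT) mice that had been sensitised and challenged with house dust mite (HDM), an allergen that provokes allergic airway inflammation, or given PBS, the saline vehicle. Each of the 2 groups held 3 samples, titled as biological replicates, with 1 Affymetrix whole-transcript array per sample. The sources used here give no dose, day, age or number of mice behind a sample, so the p-values measure only the spread between these samples. The sort took CD45+ CD4+ cells without CD11b and F4/80 from digested lung, and the labels name no CD3 stain.

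Integrins are adhesion receptors built from 1 alpha and 1 beta chain, and a chain reaches the cell surface only with a partner. On T cells, alpha E beta 7 (CD103) binds E-cadherin on epithelium and marks many tissue-resident and regulatory T cells. Alpha 4 pairs with beta 7 or beta 1 for entry into gut and inflamed tissue, alpha 1 beta 1 binds collagen, alpha L beta 2 (LFA-1) binds ICAM proteins on other cells, and alpha V chains bind matrix proteins and latent TGF-beta.

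Median signals of the arrays ran from 6.57 to 6.64 (log2). Genes of the labelled cell type were bright: Cd4 averaged 12.52 ± 0.07 (SD, n = 3) in PBS and 12.67 ± 0.08 in HDM, and Cd3e 12.82 ± 0.13 and 12.92 ± 0.15. The epithelial gene Sftpc was also bright, as given below. None of the 5 genes of the gate and of T cell identity passed the test in limma (0 also with the replicate block and 0 at an unadjusted p of 0.05), among them Ptprc (log2 difference −0.07 ± 0.07 SE), Itgam (−0.02 ± 0.23) and Adgre1 (0.39 ± 0.24). The median difference between HDM and PBS over all genes was −0.01. The arrays numbered 3 stood apart from the other 4 in several members, as the values below show, and the deviations of arrays with the same number correlated, so a fit with that number as a block is quoted wherever its calls differ.

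Among the 10 genes Itgae had the highest difference, 2.50 on the log2 scale. Of the 10 genes, 4 were higher in HDM by limma at an adjusted p below 0.05 (Itgae, Itgav, Cdh1 and Itgb2) and 0 were lower, where 2.39% of all genes were called higher and 1.56% lower. At an unadjusted p below 0.05, 7 were higher, against 8.67% of all genes. Their differences lay between 0.14 (Itga4) and 2.50 (Itgae) on the log2 scale, with a median of 0.29. In 5 of the 10 genes all HDM values lay above all PBS values, a separation found in 10.8% of all genes, and in 0 did they lie below, found in 11.8%. With the replicate number as a block 7 were higher, Itgal, Itgb1 and Itgb3 having joined, and 0 were lower, where that fit called 5.95% of all genes higher and 6.01% lower. The member count changed on leaving out 1 array, as did the calls over all genes (531 higher with the 6 arrays). It was 1 without PBS replicate 1 or PBS replicate 2, where 192 and 177 of all genes were higher. It was 2 without HDM replicate 1, HDM replicate 2 or PBS replicate 3 (202, 181 and 410 of all genes). It was 5 without HDM replicate 3 (845 of all genes). Without both arrays numbered 3, a setting chosen after seeing the data, 7 were higher and 0 lower, where 5.64% of all genes were called higher and 5.98% lower. The plot of the 10 genes by array shows these values.

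**Figure D1:**
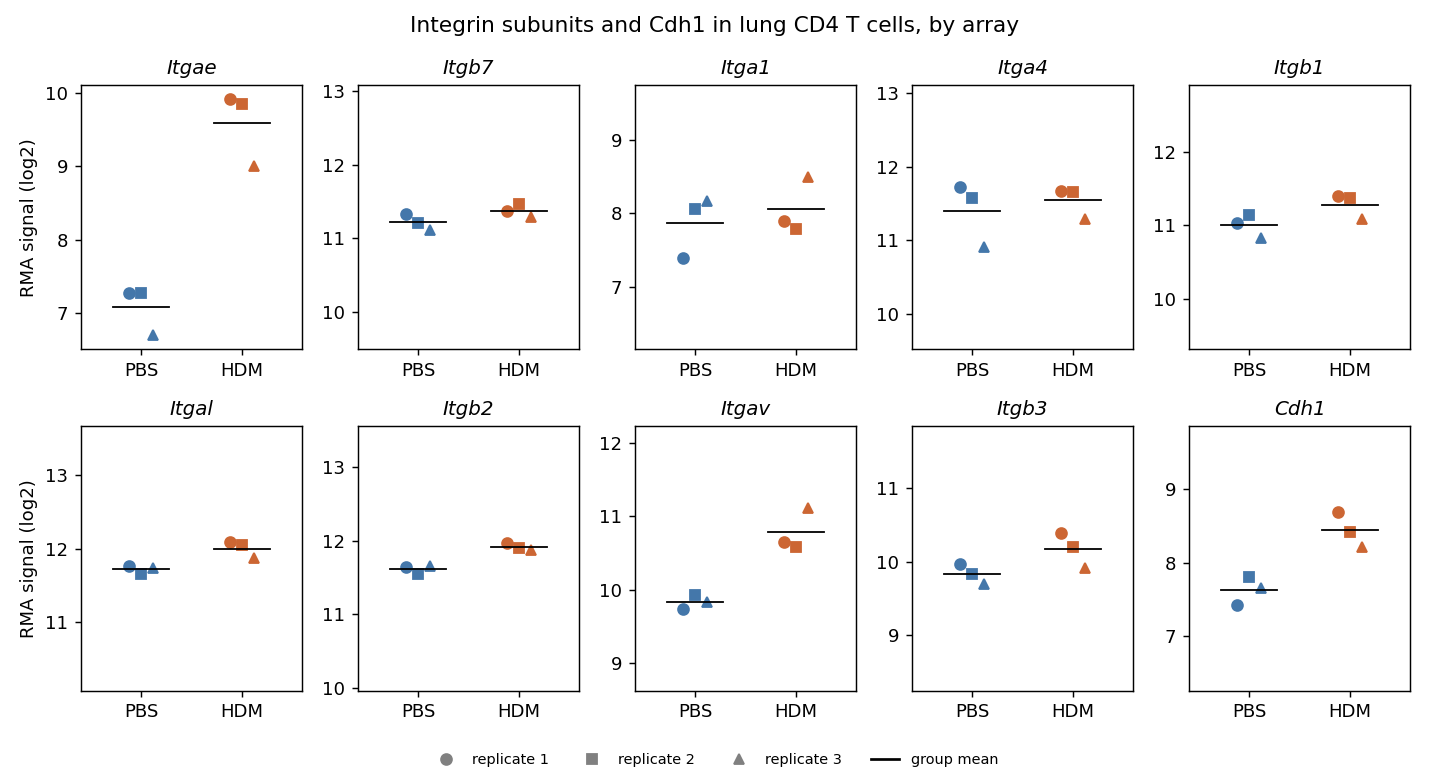
RMA signal on the log2 scale of the 9 integrin genes and Cdh1 in each array, by group. Marker shapes give the replicate number, bars the group mean, and each panel spans the same number of log2 units. The HDM and PBS values of Itgae lie 1.73 apart at their closest, while those of Itgb7, Itga1, Itga4, Itgb1 and Itgb3 overlap.

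Itgae, the alpha E chain, had signals of 7.28, 7.27 and 6.71 in PBS replicates 1, 2 and 3 and of 9.91, 9.85 and 9.00 in the HDM replicates. The groups did not overlap, and within each group the array numbered 3 was the lowest. The mean rose from 7.09 ± 0.33 to 9.59 ± 0.51 (SD, n = 3 per group), a 5.67-fold difference (log2 2.50 ± 0.26 SE, limma adjusted p = 0.00381, higher in 3 of 3 same-numbered pairs). The differences within pairs were 2.64, 2.58 and 2.29. It kept its call in all 17 alternatives, with adjusted p of at most 0.0253. In sorted bulk cells, more cells that carry a transcript and more of it per cell cannot be told apart.

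Its partner Itgb7, the beta 7 chain that CD103 shares with the gut-homing receptor alpha 4 beta 7, did not pass. Its signals were 11.33, 11.20 and 11.11 in PBS and 11.37, 11.46 and 11.29 in HDM, so that the groups overlapped by a small margin. The difference was 0.16 ± 0.09 SE, with a 95% interval from −0.04 to 0.35 (adjusted p = 0.405, and 0.176 with the block).

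Other cell types that can carry CD103 were looked at beside it. For these and all later lists, 2.39% of all genes were called higher and 1.56% lower (5.95% and 6.01% with the block). In lists of this size 0 or 1 call lies near those shares and is no result about the list. Regulatory T cells, many of which express CD103, were represented by 8 genes, of which 4 rose and 0 fell: Il2ra (1.16 ± 0.10), Nrp1 (0.99 ± 0.16), Foxp3 (0.83 ± 0.11) and Ikzf2 (0.76 ± 0.14), with adjusted p between 0.00245 and 0.0284 (6 rose with the block). Foxp3 and Il2ra kept their calls in all 17 alternatives, whereas Nrp1 lost it on leaving out either array 1 or HDM replicate 2 (up to 0.0821) and Ikzf2 on leaving out any array but HDM replicate 3 (up to 0.101). Differences of the 8 genes ran from −0.29 to 1.16, with a median of 0.79, so not every gene of the list was raised. Without both arrays numbered 3, 6 were higher and 1 lower, where 5.64% of all genes were called higher and 5.98% lower. The summed linear signal of the 8 genes was 9146 to 10780 in PBS arrays and 14878 to 18058 in HDM arrays. Of 9 measured genes of conventional dendritic cells, a lung subset of which carries CD103, 1 rose, Itgax. The other 8 summed to 1854 to 2128 in PBS and 1951 to 2379 in HDM. Their differences ran from −0.08 to 0.28, with a median of 0.02. The 10 mast cell and basophil genes gave 0 calls in limma (2 with the block, 1 in each direction, and 1 at an unadjusted p below 0.05). Hdc differed by 0.56 (limma adjusted p = 0.36, and 0.0233 with the block). Gata2 differed by −0.50 and did not pass in either fit (0.477, and 0.153 with the block). The sums were 456 to 740 in PBS and 496 to 719 in HDM. The part of regulatory T cells, dendritic cells, mast cells or basophils in the Itgae result was not tested.

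Cdh1, a cadherin best known from epithelium and the ligand of CD103, rose 1.76-fold. Its signals were 7.42, 7.80 and 7.66 in PBS and 8.70, 8.42 and 8.21 in HDM, and the groups lay 0.41 apart at their closest. The log2 difference was 0.82 ± 0.15 SE (adjusted p = 0.0292, higher in 3 of 3 pairs), but the call was lost without any array other than HDM replicate 3 (adjusted p of up to 0.113). A second probe set of Cdh1 had a mean signal of 4.85 and differed by 0.09 ± 0.10, and the average of both by 0.45 (adjusted p = 0.0742). Of 10 measured epithelial genes 0 passed in limma (0 higher and 1 lower with the block, and 1 at an unadjusted p below 0.05). In 3 all HDM values lay above all PBS values and in 1 all lay below, found in 10.8% and 11.8% of all genes. Their summed signal was 3515 to 8284 in PBS and 3955 to 8449 in HDM. The epithelial gene Krt18 differed by 0.22 ± 0.09 (adjusted p = 0.247) and Sftpc, a surfactant protein, by −0.40 ± 0.52 (adjusted p = 0.777, 0.0177 with the block). Sftpc was bright and varied between arrays, with means of 10.47 ± 0.94 in PBS and 10.08 ± 0.84 in HDM (SD, n = 3). Its mean signal lay above that of 92.6% of genes. The part of epithelial RNA in the Cdh1 result was not tested.

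Among the 8 measured catenins, other cadherins and cadherin receptors, 2 rose and 0 fell (2 and 1 with the block), with a list median of −0.04. Ctnna1, the alpha-catenin that ties cadherins to actin, rose by 0.71 ± 0.14 (adjusted p = 0.0357), and Klrg1, an inhibitory receptor that binds E-cadherin, rose by 1.20 ± 0.17 (adjusted p = 0.0109). Klrg1 signals were 9.79, 9.52 and 10.27 in PBS and 11.01, 11.14 and 11.04 in HDM, so both genes for E-cadherin receptors examined, Itgae and Klrg1, separated the groups. Ctnna1 lost its call on leaving out either array 1 or either array 2 (adjusted p of up to 0.138), and Klrg1 without either array numbered 1 or HDM replicate 2 (up to 0.0602).

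The genes of alpha 4, alpha 1 and beta 1, chains of homing and matrix receptors, did not pass. Itga4, the alpha 4 chain of VLA-4 and of alpha 4 beta 7, had signals of 11.72, 11.58 and 10.91 in PBS and 11.67, 11.66 and 11.29 in HDM. Both arrays numbered 3 were the lowest of their group, and the other 4 lay close together. The difference was 0.14 ± 0.21 SE (95% interval −0.34 to 0.62, adjusted p = 0.806) and turned to −0.11 once PBS replicate 3 was left out.

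Itga1, the alpha 1 chain of the collagen receptor VLA-1 that many tissue-resident T cells carry, had signals of 7.40, 8.06 and 8.16 in PBS and 7.89, 7.78 and 8.49 in HDM. The groups overlapped, and 1 of the 3 same-numbered pairs was lower in HDM. The difference was 0.18 ± 0.25 (95% interval −0.39 to 0.75, adjusted p = 0.786), and its sign turned without PBS replicate 1 (−0.06) or HDM replicate 3 (−0.04).

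Itgb1, the beta 1 chain common to the VLA receptors, had signals of 11.03, 11.14 and 10.82 in PBS and 11.40, 11.37 and 11.08 in HDM. Only HDM replicate 3 fell inside the PBS range, and all 3 same-numbered pairs were higher in HDM. The difference of 0.28 ± 0.12 did not pass (adjusted p = 0.255) but did with the block (0.0245).

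Both chains of LFA-1, the main T cell receptor for ICAM-1 and ICAM-2, had slightly higher values in every HDM array. Itgal, the alpha L chain, had signals of 11.77, 11.65 and 11.74 in PBS and 12.09, 12.05 and 11.88 in HDM. The groups did not overlap, yet the 1.22-fold difference (0.28 ± 0.08 SE) did not pass (adjusted p = 0.0984, and 0.0318 with the block). Itgb2, the beta 2 chain, had signals of 11.65, 11.55 and 11.65 in PBS and 11.98, 11.90 and 11.87 in HDM. Its values were the tightest of the set, with SDs of 0.06 and 0.05, and its 1.23-fold rise (0.30 ± 0.07) passed narrowly (adjusted p = 0.0497). That call was lost in 11 of 17 alternatives, with adjusted p of up to 0.219, among them repeated quantile normalization (0.0684) and leaving out any array other than HDM replicate 3.

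Itgav, the alpha V chain of receptors for vitronectin, fibronectin and latent TGF-beta, rose 1.93-fold. Its signals were 9.74, 9.93 and 9.83 in PBS and 10.65, 10.58 and 11.11 in HDM. The groups lay 0.65 apart, and here HDM replicate 3 was the highest array. The difference was 0.95 ± 0.14 SE (adjusted p = 0.0136, higher in 3 of 3 pairs). A second, dimmer probe set of Itgav differed by 0.79 ± 0.27, and the average of both by 0.87 (adjusted p = 0.0643). The call was also lost without PBS replicate 1 (0.0626) or PBS replicate 2 (0.0616).

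Itgb3, the beta 3 chain that pairs with alpha V and, on platelets, with alpha IIb, had signals of 9.97, 9.83 and 9.70 in PBS and 10.39, 10.20 and 9.91 in HDM. The lowest HDM array lay below the highest PBS array, while each same-numbered pair was higher in HDM. The difference of 0.33 ± 0.13 did not pass (adjusted p = 0.243) but did with the block (0.0273). Platelet genes gave 0 calls in limma among 7 measured (0 with the block and 0 at an unadjusted p of 0.05), and their summed signal was 877 to 1318 in PBS and 747 to 1189 in HDM. Itga2b, the platelet partner of beta 3, differed by −0.17 ± 0.11 and Ppbp by −0.38 ± 0.56.

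A further partner of alpha V, the beta 8 chain of Itgb8, which with alpha V activates latent TGF-beta, showed the second highest rise among the integrin genes. Itgb8 signals were 7.50, 8.18 and 7.43 in PBS and 9.13, 9.15 and 9.79 in HDM. All HDM values lay above all PBS values, and HDM replicate 3 was the highest, as for Itgav. The rise was 3.15-fold (1.66 ± 0.25, adjusted p = 0.0122), with a call lost only without PBS replicate 1 among 17 alternatives (adjusted p = 0.0552).

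Upstream sequence from RefSeq (build GRCm38.p6) was at hand for 5 of the 10 genes and for Itgb8. The 250 bases before the annotated start are shown for Itgav and Itgb8, both of which rose and encode partners in 1 receptor, and for Itgb7, the partner of Itgae that did not pass. They read 5′ to 3′ on the gene's strand, with matches to the ETS core in capitals.
Itgav, chr2:83724147-83724396, plus strand: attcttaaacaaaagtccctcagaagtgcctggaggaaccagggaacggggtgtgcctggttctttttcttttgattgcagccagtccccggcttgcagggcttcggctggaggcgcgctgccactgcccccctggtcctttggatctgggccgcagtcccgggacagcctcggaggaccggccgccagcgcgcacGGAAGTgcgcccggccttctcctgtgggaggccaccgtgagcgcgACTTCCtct
Itgb8, chr12:119238277-119238526, minus strand: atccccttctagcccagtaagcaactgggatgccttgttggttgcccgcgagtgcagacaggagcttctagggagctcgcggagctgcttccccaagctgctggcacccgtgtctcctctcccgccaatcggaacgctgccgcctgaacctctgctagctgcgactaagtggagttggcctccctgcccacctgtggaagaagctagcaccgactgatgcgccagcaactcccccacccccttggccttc
Itgb7, chr15:102231936-102232185, minus strand: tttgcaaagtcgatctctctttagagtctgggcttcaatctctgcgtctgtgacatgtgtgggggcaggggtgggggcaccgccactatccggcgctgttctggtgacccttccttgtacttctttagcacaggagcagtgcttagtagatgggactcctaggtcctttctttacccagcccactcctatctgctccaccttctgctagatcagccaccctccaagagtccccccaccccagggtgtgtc
The letters searched on both strands were the ETS core GGAAGT, found in 19.7% of 32851 upstream windows of the same length, the RUNX core TGTGGT (14.0%), the AP-1 site TGANTCA (6.75%) and the SMAD palindrome GTCTAGAC (0.167%); the motifs share no letters where they matched. Itgav held 2 ETS matches, whose first bases lie 54 and 9 bases before the start. Itgb8 and Itgb7 held 0 matches to any of the 4 motifs in these windows. Of the other members with sequence, Itga4 held 1 RUNX match, Itga1 held 1 ETS match and Itgb1 held 0 of any. These matches are descriptions of letters and were not tested against the changes.

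Whether partner chains changed by the same amount was asked from the log2 difference between both genes in each array, in 8 pairs. The alpha E change exceeded that of beta 7 by 2.35 ± 0.29 SE, with pair values of 2.60, 2.32 and 2.12, and that of Cdh1 by 1.69 ± 0.30. Alpha V exceeded beta 1 by 0.66 ± 0.28 and beta 3 by 0.61 ± 0.32, which became 0.39 and 0.32 without HDM replicate 3 (exact p = 0.2 each). In these 4 pairs all HDM ratios lay above all PBS ratios, and each reached 0.1, the smallest two-sided p that an exact permutation test of 3 against 3 arrays can give, which is 0.2 after adjustment over the 8 pairs. No pair could therefore pass.

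The other 4 pairs overlapped between the groups. Alpha L and beta 2 of LFA-1 changed to within −0.02 ± 0.04 SE of each other (exact p = 0.9), with pair values of −0.01, 0.03 and −0.08. Alpha 4 differed from beta 7 by −0.02 ± 0.21 (exact p = 1.0) and from beta 1 by −0.14 ± 0.18 (exact p = 0.5), and alpha 1 from beta 1 by −0.10 ± 0.43 (exact p = 1.0). In all 4 of these pairs the error exceeded the difference. In a further pair, added after the values were seen, alpha V changed less than beta 8, by −0.71 ± 0.21 (exact p = 0.1). The plot of partner genes gives each pair by replicate number.

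**Figure D2:**
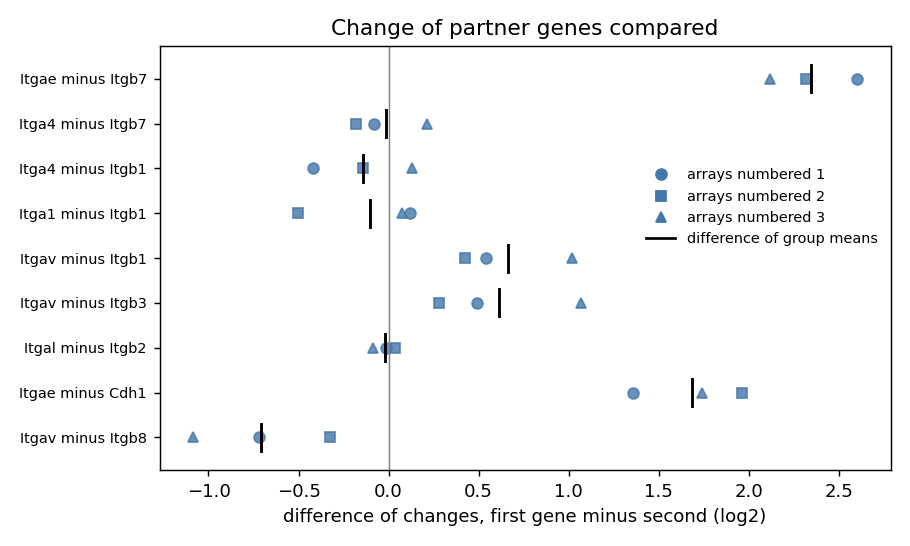
Difference between the log2 change of the first and the second gene of each pair, for the arrays numbered 1, 2 and 3 (markers) and for the group means (bars). Itgae minus Itgb7 lies between 2.12 and 2.60, and Itgal minus Itgb2 lies between −0.08 and 0.03; the last pair was added after the values were seen.

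Over the whole family, 25 of 26 listed integrin chains were measured, of which 5 rose, 1 fell and 19 did not pass (9 higher and 2 lower with the block). Over all genes 2.39% rose and 1.56% fell (5.95% and 6.01% with the block). The 2 further raised chains were Itgb8 and Itgax, the alpha X chain (CD11c) that pairs with beta 2 on dendritic cells, macrophages and some activated T cells. Itgax signals were 7.06, 7.32 and 7.25 in PBS and 8.81, 8.04 and 7.97 in HDM, with HDM replicate 1 the highest. The rise was 2.09-fold (1.06 ± 0.22, adjusted p = 0.038), and the call was lost in 5 of 17 alternatives (adjusted p of up to 0.132).

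Of 9 measured macrophage genes 1 rose beside Itgax, Chil3 (2.11 ± 0.38, adjusted p = 0.0248), a chitinase-like protein of alternatively activated macrophages. The other 8 summed to 3118 to 4095 in PBS and 3322 to 5191 in HDM, ranges that overlapped. The median difference was 0.32 over the 9 genes and 0.26 without Chil3, against −0.01 over all genes. With the block 2 of the 9 were higher, and Chil3 lost its call on leaving out either array 1 or either array 2 (up to 0.11). The part of macrophage RNA in the Itgax and Itgav results was not tested.

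Itga6, the alpha 6 chain of laminin receptors, was the chain that fell. Its signals were 11.37, 11.27 and 10.91 in PBS and 10.50, 10.44 and 10.40 in HDM, so that every HDM array lay below every PBS array. The log2 difference was −0.74 ± 0.12 SE (adjusted p = 0.0186), a call lost on leaving out either array 1 or either array 2 (up to 0.104). Of 9 measured endothelial genes 1 fell, Pecam1 (−0.51 ± 0.08, adjusted p = 0.0169, up to 0.0961 on leaving out either array 1 or either array 2), and 5 fell with the block. The differences of the 9 genes ran from −1.16 to −0.15, with a list median of −0.57. The summed signal was 4349 to 6208 in PBS and 2895 to 4760 in HDM. Pecam1, which both endothelial cells and T cells express, had a mean signal above that of 98.0% of genes. The part of these genes in the Itga6 result was not tested.

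**Figure D3:**
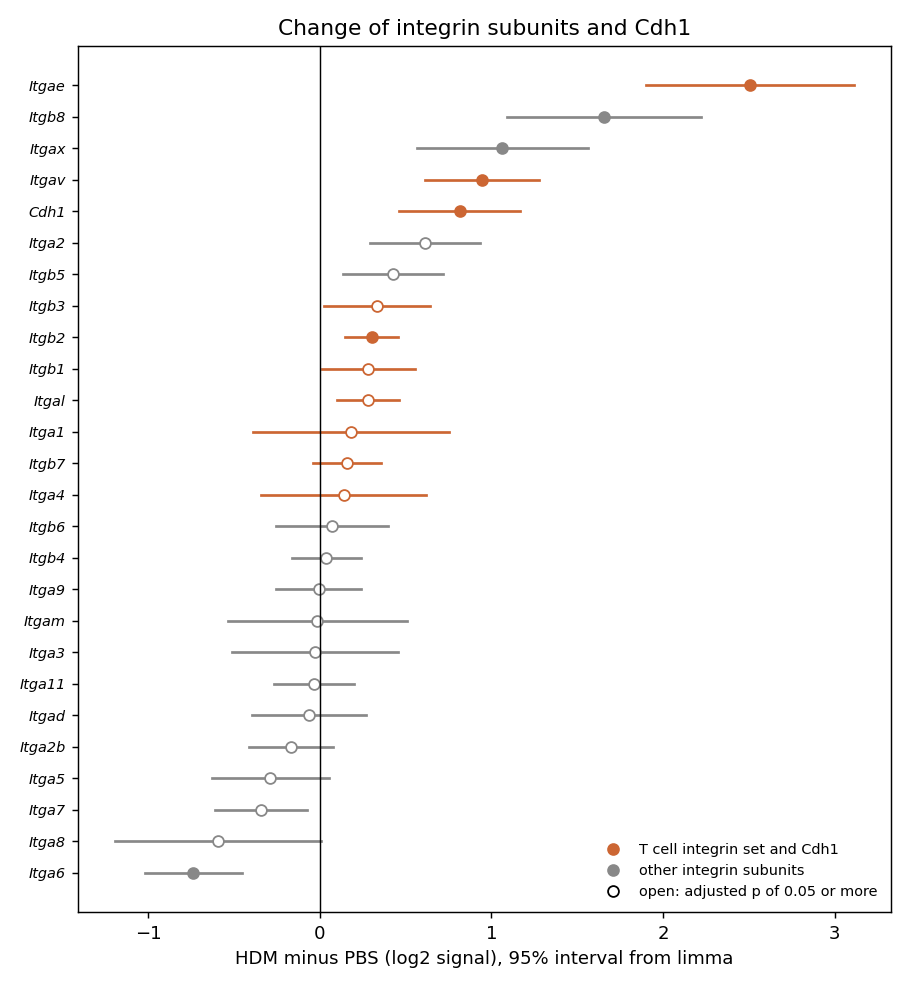
Log2 difference of HDM minus PBS with its 95% interval from limma for the 25 measured integrin chains and Cdh1, sorted by size. Filled points passed at an adjusted p below 0.05; Itgae stands at 2.50, Itgb8 at 1.66 and Itga6 at −0.74.

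Genes linked to integrin activation were looked at next, in a list not split by the direction in which each gene acts. In this list and those after it, 0 or 1 call lies near the shares over all genes, 2.39% higher and 1.56% lower. With the block these shares were 5.95% and 6.01%. Of 17 measured genes of integrin activation, 0 rose and 3 fell (2 and 4 with the block). Rasgrp2, the exchange factor CalDAG-GEFI that switches on Rap1, fell by 1.02 (SE 0.13, adjusted p = 0.00683) and passed in all 17 alternatives. Stk4, the kinase Mst1 that acts in lymphocyte adhesion, fell by 0.39 (SE 0.08, adjusted p = 0.033) and Cytip, which binds cytohesin, by 0.32 (SE 0.07, adjusted p = 0.0485). Both of these lost the call without any array other than HDM replicate 3 (up to 0.164 and 0.212). Both also lost it without an intensity trend and with adjustment over all probe sets, and Cytip also with repeated quantile normalization. Of 17 alternatives, Stk4 passed in 10 and Cytip in 7.

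Among 15 measured genes of the adhesion complex, 0 rose and 1 fell (2 and 3 with the block). It was Actn1, an alpha-actinin that links integrins to actin, with signals of 12.19, 12.16 and 12.03 in PBS and 11.12, 11.05 and 11.38 in HDM (−0.94 ± 0.10, adjusted p = 0.00381). It passed in all 17 alternatives. Of 14 measured integrin ligands 0 rose and 1 fell (2 and 2 with the block). Differences in this list ran from −0.85 to 1.12, with a median of −0.02. The gene that fell was Icam2, a ligand of LFA-1 on leukocytes and endothelium. Icam2 fell by 0.85 (SE 0.17, adjusted p = 0.0379, and up to 0.155 on leaving out either array 1 or either array 2). Its relation to the endothelial genes was not tested.

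TGF-beta is the known inducer of CD103 on T cells, together with Runx factors. Of 19 measured genes of this pathway 1 rose and 2 fell (3 and 4 with the block), with a list median of −0.01. Differences in the list ran from −0.77 to 0.82, and the largest positive one belonged to a gene that did not pass. Tgfb1, the cytokine itself, had signals of 10.96, 11.15 and 11.17 in PBS and 11.48, 11.50 and 11.77 in HDM (0.49 ± 0.10, adjusted p = 0.0414). Tgfbr3, the co-receptor betaglycan, fell by 0.77 (SE 0.10, adjusted p = 0.00722), and Smad4, the shared signal transducer, by 0.51 (SE 0.09, adjusted p = 0.0204). Tgfb1 lost its call without any array other than HDM replicate 3 (up to 0.141), Smad4 without either array numbered 1 or either numbered 2 (up to 0.0918), and Tgfbr3 without PBS replicate 2 (0.0521).

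Adhesion and homing receptors outside the integrin family formed the last list. Of 15 measured, 5 rose and 0 fell, with a list median of 0.15 (6 higher with the block). The shares over all genes were 2.39% and 1.56% (5.95% higher with the block). Cd63, a tetraspanin, rose by 1.23 ± 0.18 (adjusted p = 0.012), and Cd44, the hyaluronan receptor of antigen-experienced T cells, by 1.15 ± 0.10 (adjusted p = 0.00249). Cd99l2, which acts in leukocyte exit from vessels, rose by 0.76 ± 0.15 (adjusted p = 0.0366) and Alcam, the ligand of the T cell receptor CD6, by 0.75 ± 0.14 (adjusted p = 0.0278). Cd44 passed in all 17 alternatives, whereas Cd99l2 and Alcam lost the call on leaving out either array 1 or either array 2 (up to 0.152 and 0.132) and Cd63 without PBS replicate 1 or either numbered 2 (up to 0.067).

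The genes whose pattern was most like that of Itgae were found by the root mean square distance between log2 profiles over the 6 arrays, each centred on its own mean. Nearest was Pparg, a nuclear receptor, at 0.08, with signals of 7.78, 7.57 and 7.13 in PBS and 10.43, 10.25 and 9.39 in HDM. It shared with Itgae the lower value in both arrays numbered 3. Next came Cysltr1, a receptor for cysteinyl leukotrienes, at 0.21, Apol9b, of the apolipoprotein L family, and Ly6g5b, of the Ly6 family, at 0.22 each, and Il5, the eosinophil cytokine, at 0.23. These 5 genes had been selected by the pattern itself, so their differences of 2.16 (Cysltr1) to 2.53 (Pparg) are a description.

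Of the other members, Cdh1 lay nearest to Itgae, at 0.90 and rank 262 among all genes, followed by Itgav at 0.93 and rank 319. Itgb7, the partner chain, lay at 1.21 and rank 3377. The macrophage gene Chil3 stood at rank 10, at a distance of 0.28. The part of macrophage RNA in the pattern of Itgae and its nearest genes was not tested. Genes of CD8 and other cytotoxic lymphocytes, of which 8 were measured, gave 0 higher and 1 lower, or 1 of each with the block. The lower gene was Klrd1 (−1.21 ± 0.23, adjusted p = 0.0317, and up to 0.128 on leaving out any array but HDM replicate 3). Differences of the 8 genes ran in both directions, from −1.21 to 1.30, with a median of −0.07. They summed to 1887 to 2571 in PBS and 1684 to 3233 in HDM. The plot of centred profiles shows the nearest genes beside Itgb7.

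**Figure D4:**
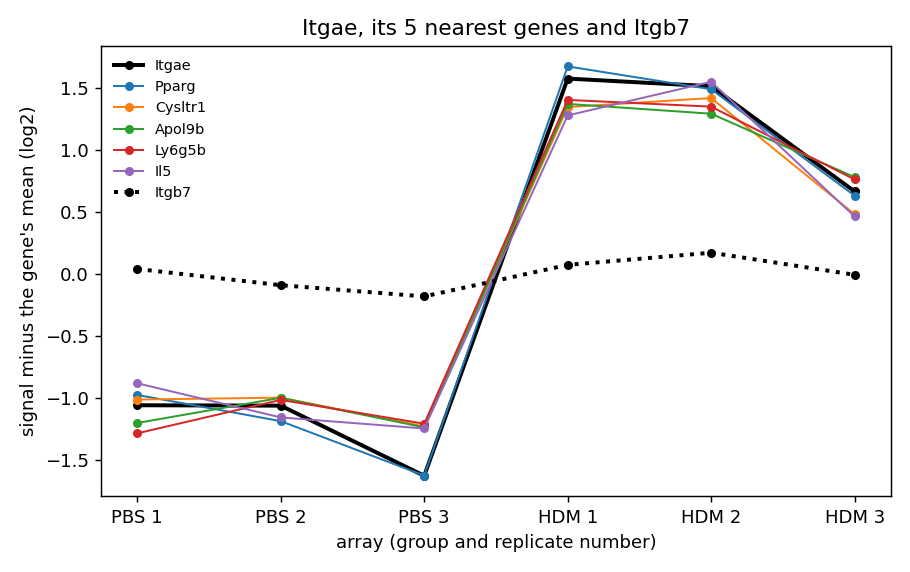
Log2 signal of Itgae, its 5 nearest genes and Itgb7 in each array, minus the gene's mean over the 6 arrays. The 5 genes follow Itgae within a root mean square distance of 0.08 to 0.23, with lower values in HDM replicate 3 than in the other HDM arrays, while Itgb7 stays near 0.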

How the data were processed

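The deposited table holds log2 signals per probe set that the authors made with RMA, per the submitters' processing notes, which give no version; RMA corrects background, makes array distributions alike and summarises probes. The table carries no detection calls; every gene was kept, and the number of arrays limits the precision. Probe sets were named through the platform annotation: of 33960, 23521 had exactly 1 gene symbol and 1814 had several, giving 22180 genes, with the brightest probe set kept for the 1082 genes with more than 1. Any 2 arrays shared at most 5 identical values.

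Differences (HDM minus PBS, two-sided) were fitted over all 22180 genes with limma 3.58.1 in R 4.3.3 (lmFit, eBayes with an intensity trend) and Benjamini-Hochberg adjustment, threshold 0.05. Adjusted p-values and SEs in the text come from this fit. Partner genes were compared with exact permutation tests in Python 3.11.15. The members and the gene lists were chosen with earlier results of these data known. Named were all members, the 5 genes nearest to Itgae, from each list up to 4 passing genes of largest change (2 if none passed), and the genes of the gate. The pair Itgav with Itgb8 was picked after its values were seen. Replicate numbers were treated as pairs because departures from the group mean had correlations over genes of 0.43, 0.17 and 0.53 for numbers 1, 2 and 3, each above 0.1. For number 2 this was lower than the 0.25 between PBS replicate 1 and HDM replicate 2, and the labels do not say what the numbers stand for. Alternatives were filters on dim genes, normalization, variance models, array weights, handling of probe sets, the replicate block and leaving out arrays. No batch was named in the labels, and none could be tested.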

Additional observations from a re-analysis of the deposited data

How the results depend on the processing

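All 10 members had positive differences in all settings that kept the 6 arrays. Itgae passed in all 17 alternatives. With 1 array left out, its difference ranged from 2.31 to 2.80, that of Itga1 from −0.057 to 0.32 and that of Itga4 from −0.11 to 0.30. Among genes outside the set, the differences of Sftpc (−0.94 to 0.083), Ppbp (−0.79 to 0.27) and Itgam (−0.25 to 0.15) also turned sign when 1 array was left out, and all of these missed the threshold. The 4 members called higher were 1 with averaged probe sets, 2 with adjustment over all probe sets, 7 with the replicate block, 7 without both arrays numbered 3, and 1 to 5 with 1 array left out. Of the 104 genes in the 7 lists of related genes, 10 were higher and 8 lower; 17 were higher with array weights, 6 and 5 with adjustment over all probe sets, 20 and 16 with the replicate block, 20 higher and 12 lower without both arrays numbered 3, and 1 to 11 higher and 2 to 10 lower with 1 array left out. Over all genes, 531 were higher and 345 lower. These counts were 914 and 923 with array weights, 352 and 191 with adjustment over all probe sets, 1319 and 1334 with the replicate block, and 1250 and 1326 without both arrays numbered 3. They were 557 lower without genes below the median signal, and 177 to 845 higher and 41 to 722 lower with 1 array left out. Adjustment over all probe sets tests more features; the cause of the other shifts was not tested.

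With the block the differences between partners (2.35 for Itgae and Itgb7) are the same by construction, and the sign-flip test cannot go below 0.25 with 3 pairs, so it says nothing about their stability. With 1 array left out, the difference between partners ranged from 2.18 to 2.60 for Itgae and Itgb7, from 1.48 to 1.89 for Itgae and Cdh1, from 0.39 to 0.81 for Itgav and Itgb1, from 0.32 to 0.79 for Itgav and Itgb3, from −0.21 to 0.084 for Itga4 and Itgb7, from −0.30 to 0.00063 for Itga4 and Itgb1, from −0.42 to 0.13 for Itga1 and Itgb1 and from −0.050 to 0.02 for Itgal and Itgb2. The 3 arrays per group limit what could be detected, and small differences such as those of Itgb7 were not resolved. Without both arrays numbered 3, a setting added after seeing the data, no named gene of the set changed sign.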
